A study of Mus musculus with 8 samples.

Results

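The 10 genes of the insulin-like growth factor (IGF) family described here encode the ligands IGF1 and IGF2, the receptors IGF1R and IGF2R and the binding proteins IGFBP1 to IGFBP6. They were taken by name and stand among 21938 protein-coding genes of GENCODE release M21. Their peaks were those whose nearest protein-coding transcription start site (TSS) was a TSS of the gene, or that lay within 10 kb of its body. By this rule 14 of 15736 listed peaks belonged to the family, 12 of 12991 gained and 2 of 2745 lost peaks. The study used ATAC-seq, in which the transposase Tn5 cuts and tags accessible DNA, to ask how chromatin accessibility differs when the remodeller CHD4 is removed from cardiomyocytes.

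Hearts were taken at E10.5 (embryonic day) from 2 groups, WT and *Chd4-CMko*, with 4 samples in each. *Chd4-CMko* embryos carried a conditional knockout of *Chd4* in cardiomyocytes. For embryos of this age used in another assay, immunohistochemistry, the study's methods give a cross of *Chd4* fl/fl females with *Tnnt2* Cre/+; *Chd4* fl/+ males, *Tnnt2* being the gene of cardiac troponin T, and the cross behind the ATAC-seq samples is not given in the sources used here. Controls were littermates, and which floxed or Cre alleles they carried is not given in the sources used here. Each sample pooled 3 hearts by the series description and the study's methods for this age (the extraction protocol in the labels has 4), and 40000 viable cells went into each reaction. The whole heart was dissociated, so each sample held cells other than cardiomyocytes, which keep *Chd4*, and a change in the share of a cell type cannot be told apart from a change in accessibility per cell.

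Each deposited list combined the samples of a genotype. Gained peaks were those with higher signal in *Chd4-CMko* and lost peaks those with higher signal in WT. Neither list held a value per sample, so the spread between replicates cannot be given, no p-value was computed, and the lists do not give the reads behind each sample, and the depth stated in the study's methods could not be checked in them. Sites that differed by less than the fold limit of the study are not listed, whether open or closed, and so a gene without a peak may have accessible chromatin in both genotypes. The score is the value deposited with each peak. It is read here as a measure of peak strength in tags, and its scale may differ between the lists, so each score was placed only within its own list. The lists cannot check the deletion of *Chd4*, which itself had 2 gained and 0 lost peaks by the rule above. Of the 2 gained peaks, 1 lay 169 bp from a TSS and scored 219.5. Of all protein-coding genes, 37.4% had a gained and 10.8% a lost peak.

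IGF1 and IGF2 are secreted growth factors that act through IGF1R, a receptor tyrosine kinase that signals to PI3K-AKT and MAPK. IGF2R does not signal in this way and carries IGF2 to lysosomes, which lowers its level outside the cell. The IGFBPs hold IGFs in the extracellular space, and they can limit or prolong their access to the receptor. In the embryonic heart, IGF2 from the epicardium is known as a growth factor for cardiomyocytes of the compact wall.

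The sequences that carry the main results are those of the 4 gained peaks within 3 kb of an annotated TSS of a family gene and both lost peaks. Also shown are 2 gained peaks with more than 1 match to ACGTG over both strands, matches that overlap as CACGTG at *Igf1r*. All sequences are from GRCm38 (mm10) and written 5′ to 3′ on the strand of the gene. Letters are in capitals where 1 of 11 searched motif strings matched on either strand. Bases annotated as untranslated sequence are left out, so the peak at the start of *Igfbp2* is shown as the stretch before its TSS and the stretch after its start codon begins.
Igfbp3, gained, exon 1, minus strand, chr11:7213554-7213704: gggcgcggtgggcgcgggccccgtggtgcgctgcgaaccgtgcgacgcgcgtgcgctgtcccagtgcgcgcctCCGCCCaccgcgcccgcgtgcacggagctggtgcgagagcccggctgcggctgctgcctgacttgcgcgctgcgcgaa
Igfbp2, gained, before the TSS, plus strand, chr1:72824458-72824502: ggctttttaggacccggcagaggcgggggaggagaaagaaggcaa
Igfbp2, gained, coding start in exon 1, plus strand, chr1:72824580-72824608: atgctgccgagATTGGGCGGccccgcgct
Igfbp6, gained, intron 1, plus strand, chr15:102146920-102147070: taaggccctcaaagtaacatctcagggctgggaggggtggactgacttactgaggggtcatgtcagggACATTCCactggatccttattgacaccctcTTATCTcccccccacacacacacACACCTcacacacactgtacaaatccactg
Igf1r, gained, intron 11, plus strand, chr7:68194330-68194480: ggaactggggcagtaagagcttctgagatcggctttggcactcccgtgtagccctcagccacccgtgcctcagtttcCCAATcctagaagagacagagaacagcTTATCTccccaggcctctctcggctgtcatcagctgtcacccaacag
Igfbp2, gained, upstream, plus strand, chr1:72806164-72806314: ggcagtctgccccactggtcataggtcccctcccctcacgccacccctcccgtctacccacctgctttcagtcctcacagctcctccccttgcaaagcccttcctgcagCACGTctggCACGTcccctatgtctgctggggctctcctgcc
Igf1r, gained, upstream, plus strand, chr7:67908152-67908302: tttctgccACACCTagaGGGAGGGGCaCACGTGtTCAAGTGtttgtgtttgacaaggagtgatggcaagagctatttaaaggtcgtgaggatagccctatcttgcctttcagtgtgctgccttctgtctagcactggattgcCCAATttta
Igfbp5, lost, upstream, minus strand, chr1:72909460-72909610: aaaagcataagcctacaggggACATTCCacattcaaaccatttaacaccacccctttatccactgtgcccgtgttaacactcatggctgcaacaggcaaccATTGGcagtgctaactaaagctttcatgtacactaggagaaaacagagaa
Igf1r, lost, intron 2, plus strand, chr7:68153415-68153565: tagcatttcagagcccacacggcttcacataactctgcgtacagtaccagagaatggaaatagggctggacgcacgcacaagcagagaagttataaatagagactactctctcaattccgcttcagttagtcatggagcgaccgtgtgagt

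Gained peaks were found at 6 of the 10 genes, *Igfbp3*, *Igfbp2*, *Igfbp5*, *Igfbp6*, *Igf1* and *Igf1r*. Of all protein-coding genes, 37.4% had a gained peak by the same rule. A gained peak within 3 kb of an annotated TSS of the gene, called a promoter peak here, was found at 4 of the 10, against 12.3% of all protein-coding genes. Lost peaks were found at 2 of the 10, *Igfbp5* and *Igf1r*, against 10.8% of all, and 0 of the 10 had a lost promoter peak, against 1.23% of all. No test was run on these counts, since the genes were chosen with results of these data known.

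Genes with a wider span of assigned sequence more often had a peak. In the upper quartile of protein-coding genes by the span of sequence assigned to them, 58.4% had a gained peak, and 3 of the 4 family genes there did, *Igfbp3*, *Igf1* and *Igf1r* but not *Igf2r*. In the lowest quartile the share was 21.1%, and of *Igfbp1*, *Igfbp4* and *Igfbp6*, which fell there, *Igfbp6* had gained peaks. In the third quartile the share was 39.6%, and *Igfbp2* and *Igfbp5* had a gained peak while *Igf2* did not. Over the family, gained peaks numbered 0.667 per 100 kb (exact Poisson 95% interval 0.344 to 1.16, counting error only), a range that holds the 0.52 of all protein-coding genes. Lost peaks numbered 0.111 per 100 kb (0.0135 to 0.401), beside 0.101 over all. Counted over gene bodies and 50 kb either side, the density was 1.1 gained and 0.260 lost peaks per 100 kb in the family, beside 0.793 and 0.120 over all.

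**Figure D1:**
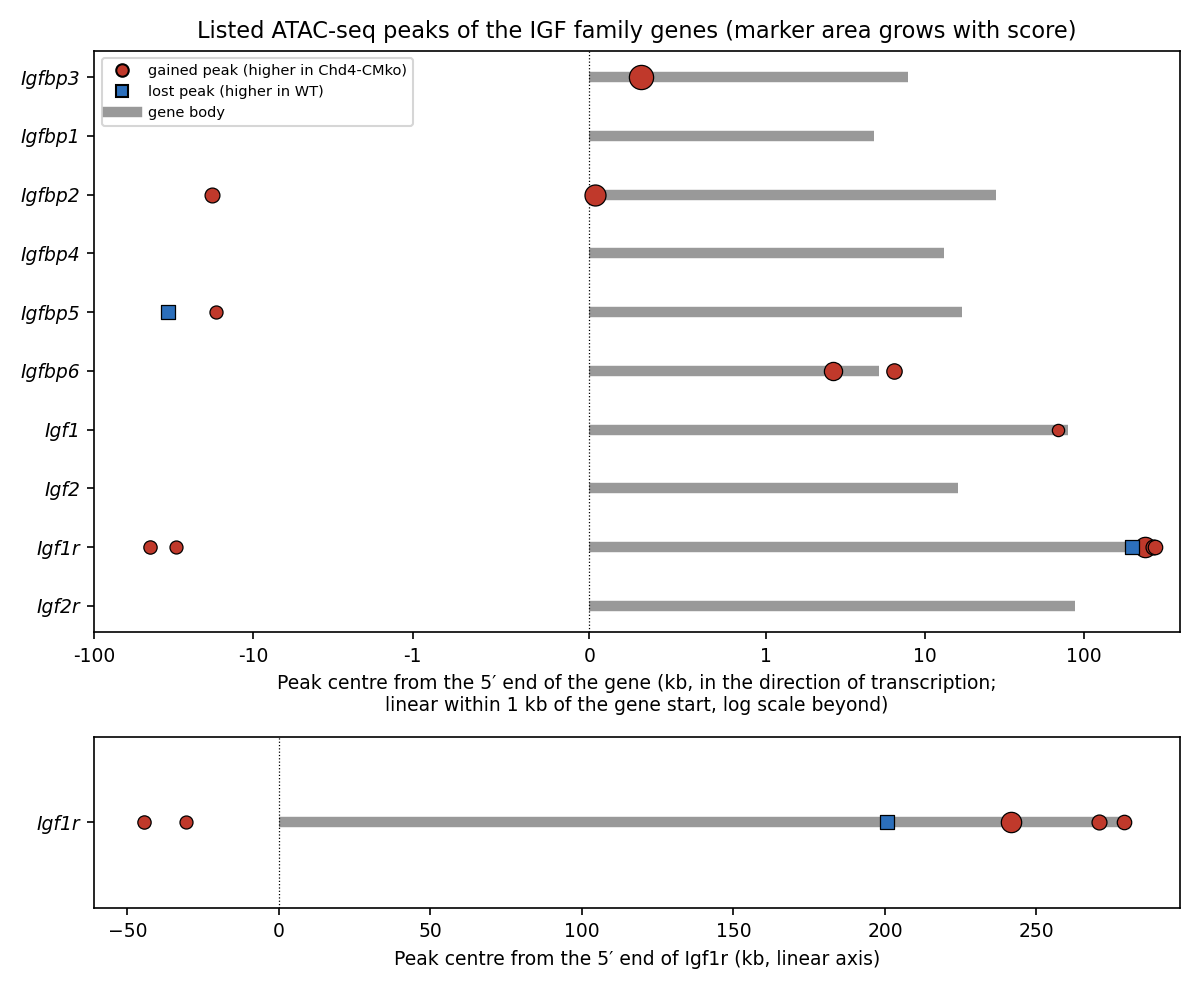
Positions of the listed peaks relative to the 5′ end of each family gene (x axis in kb, log scale beyond 1 kb in the upper panel, linear in the lower panel for Igf1r). Circles are gained and squares lost peaks, marker area grows with the score and grey bars are gene bodies. The Igfbp3 and Igfbp2 promoter peaks sit within 0.3 kb of the gene start, and most Igf1r peaks sit toward the 3′ end of the gene.

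*Igfbp3*, which encodes a binding protein that carries much of the IGF in the circulation and can also limit IGF signalling around cells, had 1 gained and 0 lost peaks. The gained peak scored 283, the highest of the family. It stood at rank 413 of the 12991 gained peaks, and 316 of the 2975 gained promoter peaks of all genes scored higher. Its centre lay 268 bp downstream of the TSS of *Igfbp3-201*, and all of its 151 bases were coding sequence of exon 1, in both annotated transcripts. It therefore lay on the transcribed side of the start and did not overlap the RefSeq promoter window of *Igfbp3*, which runs from 250 bases before to 50 bases after the start.

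The *Igfbp3* peak was very rich in GC. GC made up 78.8% of its bases, a value that 2.64% of gained peaks reached. It held 28 CpG dinucleotides, a number that 27 gained peaks (0.208%) reached, and no annotated repeat. Of the 11 motif strings it held the SP string GGGCGG alone, on the strand opposite to the gene. This string stood in 3 of the 12 gained peaks of the family, beside 22.5% of all gained peaks.

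*Igfbp3* was thus assigned 1 gained peak in a span of 645 kb, or 0.155 per 100 kb (0.00392 to 0.864). The nearest lost peak stood 45.2 kb from the body, near *Adcy1*, with a score of 34.4. *Igfbp1*, a binding protein gene known for its expression in liver and decidua, lies 3540 bp from *Igfbp3*. It had no peak of its own, and the *Igfbp3* peak lay 11008 bp from its body, just past the 10 kb limit.

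*Igfbp2*, a binding protein gene widely expressed in the embryo, had 2 gained and 0 lost peaks. The peak at chr1:72824458-72824608 covered the TSS of *Igfbp2-201*, with 77 untranslated and 29 coding bases of exon 1 in it. It scored 199.5, and 91.5% of gained peaks scored the same or less. It was the only peak of the family over a RefSeq promoter window, which 3.79% of 27025 RefSeq genes had for a gained peak. A peak over the start itself was thus seen at 1 of the 10 genes, with the *Igfbp3* peak just downstream of its start.

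The second *Igfbp2* peak lay 18.3 kb upstream of the gene, between genes, with a score of 72, and 57.7% of gained peaks scored the same or less. In the sequences above, its capitals are 2 copies of the HIF string ACGTG read on the other strand, with 4 bases between them. The peak at the start held the NFY string CCAAT, on the opposite strand, overlapping an SP string at the first codons. It also held the CTCF string AGNGGGC in its untranslated part.

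*Igfbp5*, whose product binds IGFs and extracellular matrix, lies 5458 bp from *Igfbp2* and on the other strand, so that the 3′ ends of both genes face each other. It had no peak at its start or in its body. A gained peak at chr1:72891925-72892075 lay 17.1 kb upstream and scored 43.5, with 29.7% of gained peaks at or under this. A lost peak lay 34.7 kb upstream, 17.5 kb beyond the gained peak, and scored 45.4, with 68.8% of lost peaks at or under this. *Igfbp5* was thus 1 of 2 genes of the family, with *Igf1r*, that had peaks in both lists, as had 6.36% of all protein-coding genes.

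The lost *Igfbp5* peak held the TEAD string ACATTCC and the NFY string. Of all lost peaks, 7.43% held the TEAD string and 12.4% the NFY string. The gained *Igfbp5* peak held none of the 11 strings.

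*Igfbp6*, which encodes a binding protein that prefers IGF2 to IGF1, had 2 gained and 0 lost peaks. The peak in intron 1 scored 136, with 81.9% of gained peaks at or under this, and its centre lay 2633 bp past the TSS. It was the weakest of the 4 promoter peaks and the farthest from a start. Repeats covered 26.5% of its bases, in which a run of CA is visible, and it held no CpG. It held the GATA string AGATAA, the TBX string AGGTGT and the TEAD string, the TBX match lying in the CA run.

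The second *Igfbp6* peak, at chr15:102150657-102150807, scored 81 and lay 1146 bp past the end of the gene. Its nearest TSS was that of *Soat2*, an enzyme gene of cholesterol esterification, at 206 bp, and 56 of its bases were coding sequence of exon 1 of *Soat2*. It was assigned to *Igfbp6* only because it lay within 10 kb of the body. With 2 peaks in a span of 25.1 kb, *Igfbp6* had 7.95 gained peaks per 100 kb (0.963 to 28.7), the highest density of the family. Of the intervals for gained peaks, this one alone lay above the density over all protein-coding genes. It rested on the peak at *Soat2*, without which the density was 3.98 (0.101 to 22.2).

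*Igfbp4*, a binding protein gene, had no peak in either list. The nearest gained peak stood 98.8 kb from the body, and 68.8% of protein-coding genes had one nearer. Its nearest coding gene was *Rara*, a retinoic acid receptor gene. The nearest lost peak was 485 kb away.

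*Igf1*, a ligand gene, had 1 gained peak, at chr10:87926674-87926824 in the last intron of 6 annotated transcripts. It scored 31.5, the lowest of the family, with 11.6% of gained peaks at or under this, and its centre was 65.4 kb from the nearest TSS of *Igf1*. It held the TBX and the HIF string. The nearest lost peak to *Igf1* was 1290 kb away, and 13.0% of protein-coding genes had theirs farther off.

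*Igf2*, the ligand gene expressed from the paternal copy, had no listed peak within the rule. The nearest gained peak, at chr7:142588798-142588948, stood 61.8 kb from its body and scored 74. This peak was 10.7 kb from *H19*, the noncoding gene expressed from the maternal copy of the same imprinted cluster, and its nearest coding TSS was that of *Mrpl23*. The nearest lost peak stood 516 kb away. Neither list thus placed a change at the *Igf2* promoters at the limit used.

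*Igf1r*, the gene of the signalling receptor, had the most peaks of the family, 5 gained and 1 lost. Of all protein-coding genes, 2.31% (507 genes) had 5 or more gained peaks. The gene is 281 kb long, and its gained peaks came to 1.29 per 100 kb (0.419 to 3.01). This interval holds the 0.52 of all protein-coding genes.

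None of the *Igf1r* peaks lay at the start of its coding transcript. The gained peaks at chr7:67908152-67908302 and chr7:67922208-67922358 stood 44.6 kb and 30.5 kb upstream of it and scored 47 and 42.5. Both were below the median of the gained list, 62.5. The other 3 stood toward the 3′ end of the gene.

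The strongest of these lay in intron 11 of 20 and scored 183.5, with 89.6% of gained peaks at or under this. It counted as a promoter peak because it lay 261 bp before the start of *Igf1r-204*, an annotated transcript with a retained intron, and its distance from the coding TSS was 241578 bp. With TSSs of coding transcripts alone, a setting added after the data were seen, 3 family genes and not 4 had a gained promoter peak, beside 9.87% of all protein-coding genes. The peak in the last intron, at chr7:68223400-68223550, scored 73.5, and the one at chr7:68231735-68231885 in the 3′ untranslated part of exon 21 scored 65, the latter also within 10 kb of the neighbouring gene *Pgpep1l*. The lost peak lay in intron 2, scored 56.4 with 81.2% of lost peaks at or under this, and was 40.9 kb from the nearest gained peak of the gene.

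The *Igf1r* peaks differed in sequence. The farthest upstream peak held strings of 5 kinds, TBX, KLF (GGGNGNGGC), HIF, NKX2-5 (TNAAGTG) and NFY. Of these, 4 stood within its first 41 bases, and the HIF matches on both strands overlapped as CACGTG. The GATA string stood in 3 of the 5 gained *Igf1r* peaks, the nearer upstream one and those in intron 11 and exon 21. The lost peak held no string, but 7 CpGs, a number that 2.99% of lost peaks reached.

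*Igf2r*, the clearance receptor gene expressed from the maternal copy, had no listed peak. The nearest lost peak was 215 kb away.

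The 12 gained peaks of the family scored between 31.5 and 283, with a median of 72.75. The median of the gained list was 62.5, and 8 of the 12 were above it. The 4 promoter peaks scored 136 to 283 and the 8 distal peaks 31.5 to 81, so that these ranges did not overlap. Distal here means away from the TSSs of the family gene. The peak at 81 lay 206 bp from the TSS of *Soat2*, and it counts as a promoter peak in the whole list, where the TSS of any protein-coding gene counts. The order was the same over the whole list, where the median was 122.5 for 2975 promoter peaks and 54.5 for 10016 distal peaks. Both lost peaks, with 45.4 and 56.4, were above the median of the lost list, 36.8.

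**Figure D2:**
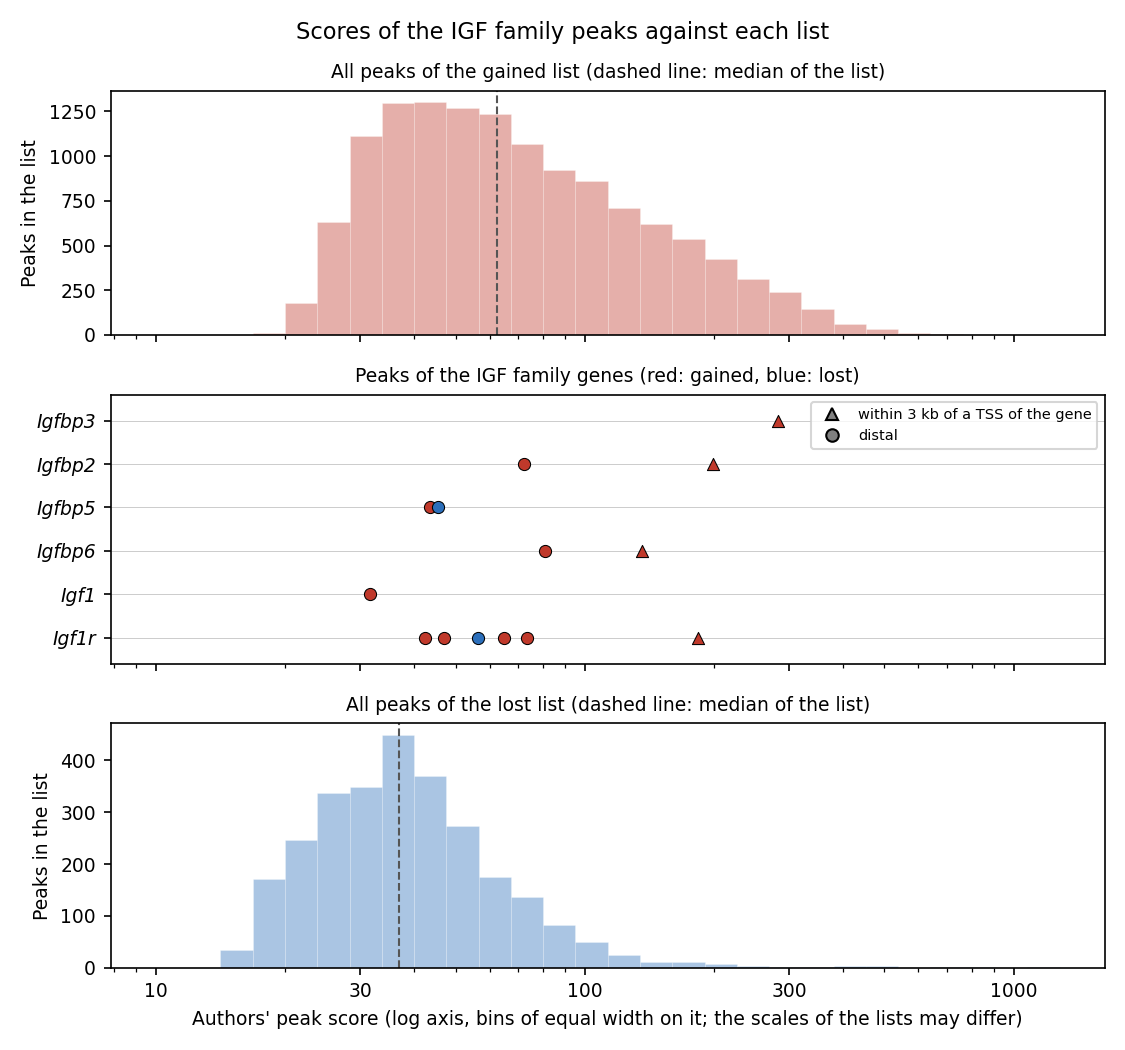
Scores of the family peaks (middle panel, x axis is the authors' score on a log axis, triangles are promoter and circles distal peaks) beside the number of peaks per score bin in the gained list (top) and the lost list (bottom), with dashed lines at the list medians of 62.5 and 36.8. The 4 promoter peaks at 136 to 283 all lie to the right of the distal peaks at 31.5 to 81, of which the peak at 81 is near the TSS of Soat2.

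**Figure D3:**
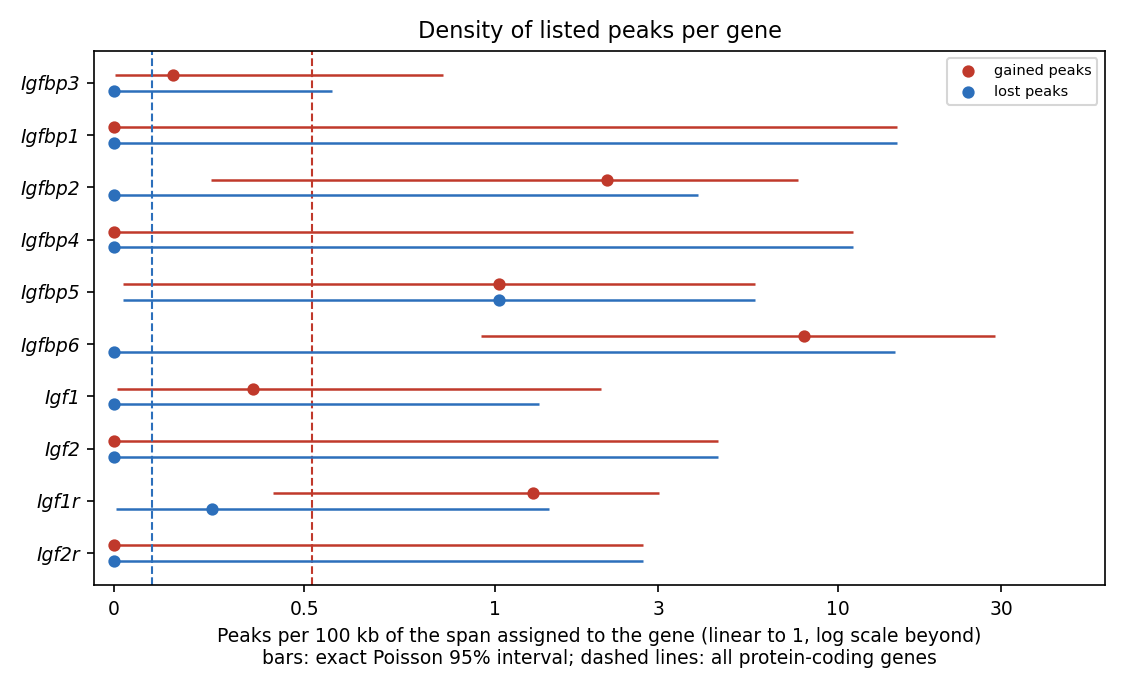
Gained and lost peaks per 100 kb of the span assigned to each gene (x axis, linear to 1 and log beyond), with exact Poisson 95% intervals as bars and dashed lines for all protein-coding genes at 0.52 and 0.101. Intervals are wide, and that of Igfbp6 for gained peaks (0.963 to 28.7) is the only one that lies above the line of its list.

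GC content was higher in the promoter peaks, with overlap between the classes. The 4 promoter peaks had a median GC content of 61.6%, beside 63.6% over the whole gained list. The 8 distal gained peaks, with the peak near the *Soat2* TSS among them, had a median of 49.3%, beside 53.6%. *Igfbp3* with 78.8% and *Igfbp6* with 52.3% marked the range of the promoter peaks, and the distal peaks reached 64.9% at *Igfbp2*. The lost peaks had 44.4% at *Igfbp5* and 47.7% at *Igf1r*, beside a median of 50.3% in the lost list. The part of GC content in the scores was not tested.

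**Figure D4:**
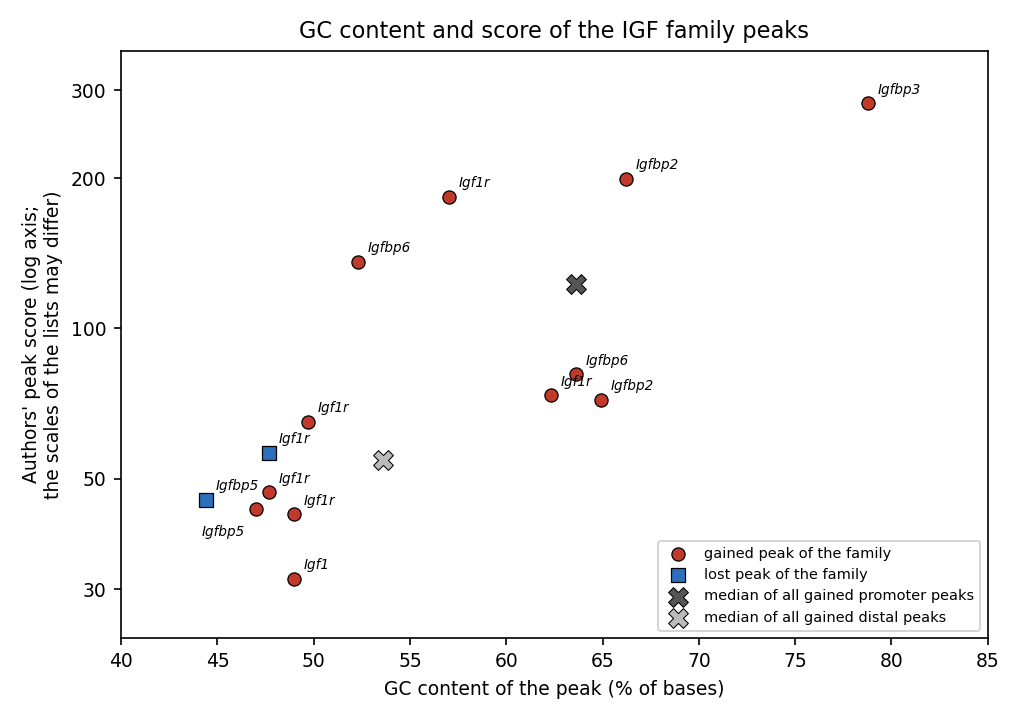
GC content (x axis, percent of bases) and score (y axis, log scale) of each of the 14 family peaks, with circles for gained and squares for lost peaks and crosses at the medians of all gained promoter and distal peaks. Igfbp3 is highest on both axes, at 78.8% and 283.

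Among the motif strings, GATA and TBX each stood in 4 of the 12 gained peaks, beside 11.1% and 9.90% of all gained peaks of the same length. HIF and NFY each stood in 3, beside 10.2% and 29.3%. KLF stood in 2, beside 24.4%, and CTCF, TEAD and NKX2-5 in 1 each, beside 17.2%, 3.76% and 6.87%. The strings of MEF2 (CTANAAATA) and ETS (CAGGAAGT) were in none, beside 2.06% and 2.36%. With 1 mismatch allowed, the KLF string stood in 8 of the 12, ETS in 3, TEAD in 2 and MEF2 in 1, beside 72.0%, 23.2%, 33.2% and 9.52% of all gained peaks. With 100 bases added on either side, GATA stood in 4, TBX in 6 and HIF in 4, beside 20.3%, 19.6% and 21.2%. At this setting CTCF stood in 3 and TEAD in 2, beside 29.7% and 6.84%. Both strands were searched, and the SP and KLF strings can overlap, as can those of NFY and SP. A match says only that these letters are in the window, and no test was run on counts this small.

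Of 39 other genes of the IGF and insulin pathway, 24 had a gained peak by the rule (37.4% of all protein-coding genes) and 10 a lost peak (10.8% of all). Gained promoter peaks stood at 4 of them (12.3% of all), and lost promoter peaks at 0 (1.23% of all). Among the insulin ligands and receptors, *Insrr*, an orphan receptor of the family, had 2 gained promoter peaks, 1 of which scored 143.5 at 1722 bp from a TSS. Among the carriers, proteases and inhibitors of the IGFBPs, *Stc1*, a stanniocalcin, had 1 that scored 75.5 at 166 bp. Among the adaptors, *Irs4*, a docking protein of the receptors, had 2, 1 of which scored 96.5 at 104 bp. The strongest of those given was at *Rictor*, a subunit of the kinase complex mTORC2, with 307.5 at a distance of 163 bp.

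By group, beside 37.4% of all protein-coding genes, gained peaks stood at 7 of 8 downstream genes and all 3 genes of IGF2 mRNA-binding proteins, and at 4 of 9 PI3K-AKT genes, 4 of 7 adaptors, 3 of 6 carriers and proteases, 2 of 4 insulin ligands and receptors and 1 of 2 IGFBP relatives. *Foxo1*, a transcription factor that AKT keeps out of the nucleus, had the most gained peaks, 4, and 4.12% of all protein-coding genes had as many. *Irs2*, a docking protein of the insulin and IGF1 receptors, had the most lost peaks, 3, where 0.725% of all had as many, and also 3 gained peaks, where 7.82% did. No share was tested against that of all protein-coding genes.

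Cell type markers were looked up by the same rule. Gained peaks at any position stood at 7 of 10 cardiomyocyte, 4 of 5 endothelial, 2 of 5 epicardial and 1 of 5 erythroid genes, beside 37.4% of all protein-coding genes. Gained promoter peaks stood at 4 of 10 cardiomyocyte genes (*Actn2*, *Tnni3*, *Myl4* and *Nppa*), 2 of 5 epicardial genes (*Upk3b* and *Aldh1a2*), 1 of 5 endothelial genes (*Nfatc1*) and 0 of 5 erythroid genes, beside 12.3% of all. Lost peaks at any position stood at 4 of 5 epicardial genes (*Wt1*, *Tbx18*, *Tcf21* and *Aldh1a2*), 2 of 5 erythroid, 1 of 5 endothelial and 0 of 10 cardiomyocyte genes, beside 10.8% of all. The only lost promoter peak among them was at the erythroid gene *Alas2*, beside 1.23% of all. The part of cell types in the family's peaks was not tested, and a list of differential peaks cannot show whether a cell type was present.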

How the data were processed

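Per the labels, hearts of WT and *Chd4-CMko* embryos were processed for ATAC-seq, and mm10 was the reference to which the authors mapped reads with BWA-MEM. Peak calling used HOMER 4.10.3, and ChIPseeker 1.20.0 served for annotation. Read filters, duplicate handling, any Tn5 shift and the way in which samples were combined are not given in the sources used here, and each can change which peaks pass. The deposited score of each peak was used as it stands. All peaks were 151 bases long, and coordinates are 1-based.

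Peaks were assigned to genes with GENCODE M21, using every transcript of protein-coding genes. The family, motif and gene lists were chosen with earlier results of these data known. All 10 family genes and their peaks are named, with the protein-coding gene of the nearest TSS where it differs. Nearer TSSs of other kinds of gene are not named. Of the other pathway genes, those with a promoter peak or the most peaks in a list are named. Promoter windows are from RefSeq (GRCm38.p6), and all 10 genes matched. With no values per sample, no test between genotypes was run. Intervals are exact Poisson 95% intervals that cover counting error only and treat peaks as independent. Alternatives changed the window, the TSS set, the score limit and the promoter width. The assignment was tested on simulated data. Python 3.11.15, pandas 2.3.3, numpy 2.4.6, scipy 1.17.1 and pysam 0.24.0 were used. The gained peak nearest to *Igf2r* is not reported here.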

Additional observations from a re-analysis of the deposited data

How the results depend on the processing

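With a window of 50 kb, 4 family genes had a lost peak in place of 2, since 1 lost peak near *Adcy1* then fell to both *Igfbp1* and *Igfbp3* (16.1% of all protein-coding genes had one). With peaks within 10 kb of the gene body only, the *Igfbp5* peak was left out, so 1 gene had a lost peak (7.31% of all) and 1 lost peak was assigned. With a promoter window of 10 kb, 1 gene, *Igf1r*, had a lost promoter peak in place of 0, at a transcript with a retained intron (3.35% of all). The other 46 recalculated main values, counts of family genes and peaks and densities, stayed within 1.5 times their value or, for densities, within its interval, though the gained density went from 0.667 to 1.08 and 1.1, and the lost density from 0.111 to 0.135 and 0.260, with gene bodies and 10 kb or 50 kb. Between 4 and 8 family genes had a gained peak over all settings, with 4 when only peaks at or above the median score of their list were kept (24.7% of all protein-coding genes) and 8 with the 50 kb window (56.7%). A gained promoter peak was found at 3 or 4 genes in each setting, and with 1 kb at 3 (9.10% of all). Of the values for single genes, all protein-coding genes and motif strings, 176 stayed and 51 moved, by over 1.5 times for counts, out of the Wilson 95% interval of the main share for shares of all genes, or by over 5% for their densities.

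No paired analysis was possible because the lists hold no value per sample. Leaving out each sample in turn was not run for the same reason. The lists do not give the reads behind each sample, and low signal limits which sites reached a list.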
